A study of Mus musculus with 7 samples.

Results

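MHC class I presentation was described through 10 genes: the heavy chains H2-K1, H2-D1 and H2-Q7, the light chain B2m, the peptide transporter subunits Tap1 and Tap2, the loading factor Tapbp (tapasin), the immunoproteasome subunits Psmb8 and Psmb9, and the transcriptional regulator Nlrc5. They were found by symbol, all 10 of them, among the 31907 genes listed in any of the 3 expression tables of the series. The donor cell table lists 9 of them and has no value for B2m, while the keratinocyte and host tables list 10 each. Single cells came from mouse epidermis 3 weeks after bone marrow transplantation (BMT), in which lethally irradiated male C57BL/6 hosts carrying CD45.2 had received marrow of female C57BL/6 donors carrying CD45.1. Donor CD11b+MHCII+ myeloid cells gave 4 libraries, of which 3 carried the label BMT and 1 a label that adds T cells (BMT + T cells). CD45-negative keratinocytes of the male hosts formed 1 library under each label, and host CD11b+MHCII+ cells formed 1 library labelled BMT. The series' own design speaks of CD4 T cells and male antigen-specific CD8 Matahari T cells given with the marrow, whereas most labels name the marrow alone, so what was compared is the labels. Donor and host are of the same inbred background, the epidermis of several mice was pooled for a library, and no label ties a library to a single mouse. In cluster comparisons the library was a block, so a p-value there measures how cluster differences vary from pool to pool. That spread was estimated over all clusters together. In the comparison of donor labels, a p-value measures the spread between pools.

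In the class I pathway, the proteasome cuts cytosolic proteins into peptides, and the immunoproteasome subunits replace constitutive ones and change which peptides are made. The transporter formed by Tap1 and Tap2 moves the peptides into the endoplasmic reticulum, where tapasin holds an empty heavy chain and B2m next to the transporter until a peptide is bound. The loaded complex goes to the cell surface, where CD8 T cells read it. Interferon-gamma raises most genes of the pathway, and Nlrc5 acts on the promoters of several of them. Langerhans cells are the antigen-presenting cells of the epidermis, and monocyte-derived Langerhans cells (mLC) take their place when the embryonic network has been lost.

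Of the 10 genes, 9 lie on chromosome 17 or 2 of the GRCm38.p6 assembly and Nlrc5 lies on chromosome 8. Tapbp, H2-K1, Psmb9, Tap1, Psmb8, Tap2, H2-D1 and H2-Q7 follow one another on chromosome 17 in this order, between 33919478 and 35443773. B2m is alone on chromosome 2, from 122147687 to 122153082. RefSeq promoter windows of that assembly, which reach from 250 bases before to 50 bases after a start site, were found for 8 of the 10 genes, and Tap2 and Nlrc5 had none. H2-K1 had 2 windows, of which the first listed was used. The H2-K1 stretch printed below lies inside the annotated span of that gene, from 33996012 to 34000619. The stretches below are shown because the heavy chain genes share long runs of letters there. In the heavy chain stretches, capitals mark the runs of at least 10 letters that H2-K1, H2-D1 and H2-Q7 have in common, and in all stretches they mark TGACG and CCAAT, searched on both strands (the reverse strand of CCAAT reads ATTGG).
H2-K1 (chr17:34000359-34000521, minus strand): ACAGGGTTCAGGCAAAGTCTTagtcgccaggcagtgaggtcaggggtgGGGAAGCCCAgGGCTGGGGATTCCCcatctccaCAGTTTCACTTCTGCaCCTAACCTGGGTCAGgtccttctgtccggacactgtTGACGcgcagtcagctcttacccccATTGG
H2-D1 (chr17:35262860-35263022, plus strand): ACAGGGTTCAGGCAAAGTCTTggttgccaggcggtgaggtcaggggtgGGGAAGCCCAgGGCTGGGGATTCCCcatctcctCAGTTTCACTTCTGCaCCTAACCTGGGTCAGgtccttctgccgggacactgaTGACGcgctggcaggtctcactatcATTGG
H2-Q7 (chr17:35438959-35439119, plus strand): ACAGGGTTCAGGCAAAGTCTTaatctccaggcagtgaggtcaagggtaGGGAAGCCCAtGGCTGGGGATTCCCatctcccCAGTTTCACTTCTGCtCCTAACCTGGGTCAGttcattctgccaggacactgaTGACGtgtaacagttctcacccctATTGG
B2m (chr2:122147539-122147638, plus strand): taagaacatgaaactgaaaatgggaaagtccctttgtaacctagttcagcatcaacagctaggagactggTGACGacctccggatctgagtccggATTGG
Psmb9 to Tap1 (chr17:34187331-34187555, plus strand): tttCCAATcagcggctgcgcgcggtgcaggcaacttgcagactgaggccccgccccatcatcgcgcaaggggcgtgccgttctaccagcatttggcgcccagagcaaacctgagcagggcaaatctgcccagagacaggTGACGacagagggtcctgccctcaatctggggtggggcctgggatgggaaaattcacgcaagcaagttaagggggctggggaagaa

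The heavy chain stretches have the same order of elements, from the shared runs through TGACG to an inverted CCAAT. H2-K1 and H2-D1 were identical at 91.4% of aligned positions, H2-K1 and H2-Q7 at 87.7%, and H2-D1 and H2-Q7 at 85.9%. Of the 6 shared runs in the windows, 5 lie in the printed stretches. GGCTGGGGATTCCC stood in 0.0152% of 32851 RefSeq promoters, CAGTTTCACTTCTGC in 0.0213% and CCTAACCTGGGTCAG in 0.0152%, and among the 8 promoters found here each stood in those of the 3 heavy chains. B2m has none of these runs, but it has the same TGACG followed by an inverted CCAAT. The last stretch is the whole interval between the starts of Psmb9 and Tap1, which are transcribed away from each other, so both genes share its TGACG and CCAAT. These short strings are common, at 20.8% and 37.4% of all promoters, and stood in 6 and 7 of the 8. The Psmb8 window held neither. A match describes letters only, and says nothing of a factor bound there.

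The libraries held 11899 donor cells, 5426 keratinocytes and 781 host cells. Donor values of genes are unique molecular identifiers (UMIs) per 10000 UMIs of the cell, averaged over cells. Values of keratinocytes, host cells and cell type markers are summed UMIs per 10000 summed UMIs. The median depth per cell ran from 4376 UMIs in the host library to 13387 in donor BMT replicate 1. BMT replicate 3 (226 cells) and the BMT + T cells library (719 cells) were small beside BMT replicates 1 and 2 (2572 and 8382 cells). Any pair of libraries shared 0 to 7 cell barcodes. The summed myeloid markers (Ptprc, Itgam, Csf1r, Lyz2, Cd74 and Tyrobp) stood at 244 to 460 UMIs per 10000 in the donor libraries, and the 7 T cell markers listed there at 0.0676 to 0.094. In keratinocytes, the summed keratins were at 518 and 531 per 10000. Cluster names are the authors' own: Mono (classical monocytes), ISG monocytes (named for interferon-stimulated genes), S100a+ and Hmox1+ monocytes, Mrc1+ macrophages, MC (cells the study calls converting), and resident, cycling and migrating mLC. Since clusters had been made from the same values, a difference between clusters describes the annotation. H2-K1, H2-D1 and H2-Q7 are close paralogs, and how reads shared between them were counted is not given in the sources used here, so their separate levels are uncertain to that extent.

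Donor cells of every annotated cluster held transcripts of the measured class I genes, and each gene varied 1.83- to 4.63-fold between its highest and lowest cluster mean. H2-K1 was detected in 95.3 to 99.9% of resident mLC per library. Class I genes are active in nearly all nucleated cells, so no cell type here gave a background share for free RNA. Over the 8 clusters with at least 2 libraries of at least 20 cells, H2-K1 averaged from 33.6 ± 3.76 UMIs per 10000 (SD, n = 3 libraries) in ISG monocytes to 18.4 ± 6.45 (n = 4) in resident mLC. H2-D1 ranged from 38.5 ± 7.19 (n = 4) in Mono to 20.2 ± 5.42 (n = 3) in cycling mLC, with resident mLC next at 20.9 ± 3.74 (n = 4). Both classical heavy chains were thus high in Mono and ISG monocytes and low in resident and cycling mLC. H2-Q7, a nonclassical heavy chain, ran from 2.62 ± 1.51 (n = 2) in migrating mLC to 1.1 ± 1.24 (n = 4) in resident mLC.

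Tapbp went from 8.67 ± 1.85 UMIs per 10000 (n = 3) in ISG monocytes to 2.65 ± 1.06 (n = 4) in resident mLC. The transporter subunits were highest in migrating mLC, at 5.20 ± 0.0919 for Tap1 and 3.42 ± 0.495 for Tap2 (n = 2), and lowest in Hmox1+ monocytes, at 1.66 ± 0.535 and 0.739 ± 0.262 (n = 3). The immunoproteasome subunits were also lowest in Hmox1+ monocytes, at 1.41 ± 0.840 for Psmb8 and 1.25 ± 0.444 for Psmb9. Psmb8 was highest in Mono (5.15 ± 1.47, n = 4) and Psmb9 in migrating mLC (5.27 ± 0.820, n = 2). Nlrc5 lay between 1.32 ± 0.0566 in migrating mLC and 0.392 ± 0.126 in Hmox1+ monocytes. The lowest cluster was therefore Hmox1+ monocytes for 5 of the 9 genes, resident mLC for 3 and cycling mLC for 1. Hmox1+ monocytes were also shallow, with a median of 3751 to 8924 UMIs per cell in the 3 libraries that had at least 20 of them, and the part of depth in their values was not tested. Most neighbours in these orders could not be told apart: of 63 neighbouring pairs of clusters over the 9 genes, 7 differed in their means by more than the larger of their SDs. Those were 3 pairs for Tap2, among them migrating mLC over ISG monocytes, 2 for Psmb8 and 2 for Psmb9. S100a+ monocytes had at least 20 cells in BMT replicate 2 alone, where H2-K1 (38.6) and Tapbp (9.72) stood high beside Psmb8 (1.5) and Psmb9 (2.45).

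**Figure D1:**
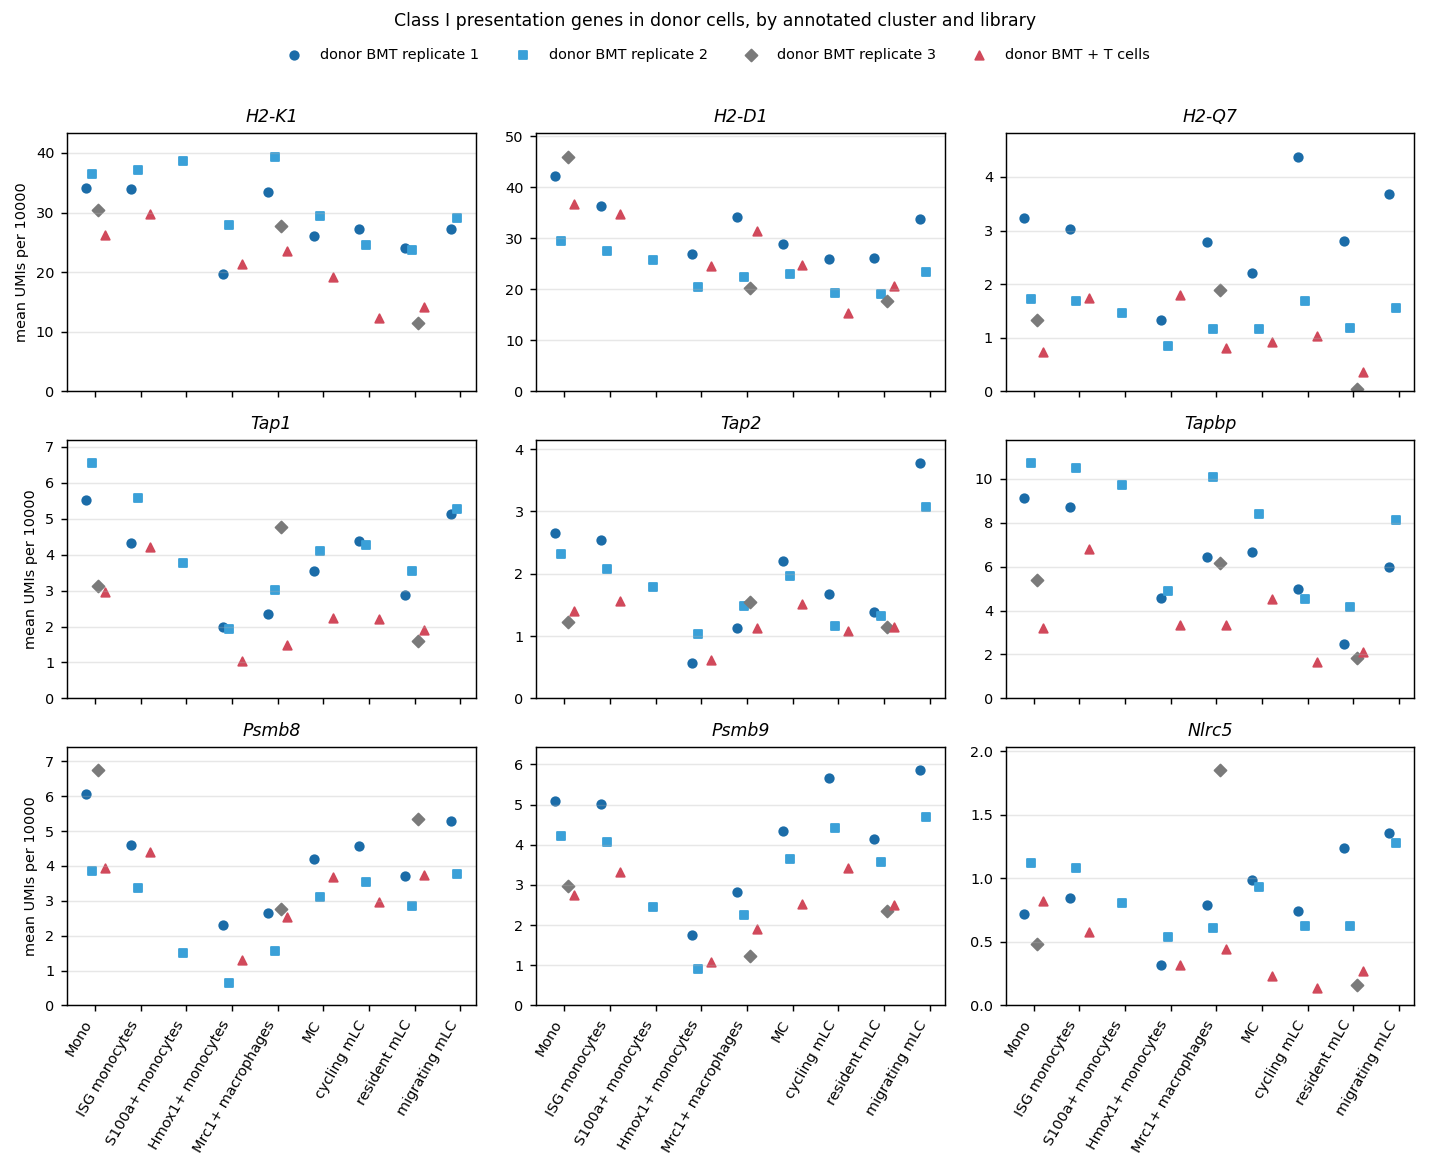
Mean UMIs per 10000 of the 9 measured genes (y axes, linear, from 0) in the annotated donor clusters (x axis), 1 point for each library with at least 20 cells of the cluster. H2-K1, H2-D1 and Tapbp lie lower in resident mLC than in Mono in all 4 libraries, and Tap1 and Tap2 lie higher in migrating than in resident mLC in both libraries shown.

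The comparison of resident mLC with Mono sets the end of the path to a Langerhans cell beside its start. Of the 9 genes, 5 were lower in resident mLC and none was higher: Tapbp, H2-D1, H2-K1, Tap1 and Tap2. Over all 7267 genes tested, 14.3% were called lower and 18.4% higher (limma, Benjamini-Hochberg adjusted p under 0.05). No smallest change was required of a call, and none of the 9 genes changed by more than 2 on the log2 scale in any donor comparison. The median log2 difference was -0.83 for the 9 genes and 0.14 for all genes tested. Tapbp measured 2.5, 4.18, 1.82 and 2.10 UMIs per 10000 in resident mLC of BMT replicates 1 to 3 and BMT + T cells, and 9.15, 10.7, 5.40 and 3.21 in Mono of the same libraries. The levels of the groups overlapped because Mono of BMT + T cells was low, but each library had the lower value in resident mLC. The log2 difference of Tapbp was -1.32 ± 0.188 (SE, n = 4 libraries, limma adjusted p = 5.51e-06), or 2.49-fold.

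The classical heavy chains bind peptides for CD8 T cells. H2-K1 stood at 24, 23.7, 11.5 and 14.2 UMIs per 10000 in resident mLC and at 34.2, 36.5, 30.5 and 26.2 in Mono, in the same library order. Every Mono library lay above every resident mLC library. The difference was -0.85 ± 0.145 on the log2 scale (n = 4, limma adjusted p = 5.48e-05). H2-D1 measured 26.2, 19.0, 17.7 and 20.7 in resident mLC against 42.1, 29.4, 46.0 and 36.7 in Mono, again without overlap, and differed by -0.88 ± 0.134 (n = 4, limma adjusted p = 1.37e-05). H2-K1 and H2-D1 were the 2 genes of the 9 whose libraries lay fully apart in the lower direction, a pattern found in 10.7% of genes tested.

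Of the transporter subunits, Tap1 had 2.87, 3.56, 1.60 and 1.91 UMIs per 10000 in resident mLC and 5.51, 6.54, 3.12 and 2.96 in Mono, a log2 difference of -0.83 ± 0.218 (n = 4, limma adjusted p = 0.00479). Tap2 changed less, from 2.66, 2.32, 1.22 and 1.40 in Mono to 1.39, 1.32, 1.15 and 1.15 in resident mLC. Its log2 difference was -0.50 ± 0.185 (n = 4, limma adjusted p = 0.0405), and the call for Tap2 was lost without BMT replicate 1 (adjusted p = 0.199), BMT replicate 2 (0.277) or BMT + T cells (0.085). Leaving out BMT replicate 2 also ended the call for Tap1 (limma adjusted p = 0.0641) and left 3 of the 9 genes called.

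The immunoproteasome subunits did not pass the test. Psmb8 had a log2 difference of -0.38 ± 0.173 (n = 4, limma adjusted p = 0.0968) and Psmb9 of -0.25 ± 0.127 (adjusted p = 0.148), and both were lower in resident mLC in 4 of 4 libraries. The call for Psmb8 depended on the setting: it was called lower with at least 50 cells per profile (limma adjusted p = 0.0173), with voom (0.0248) and with a pseudocount of 1 (0.0417), and in the other alternatives it had 0.0921 to 0.369. H2-Q7 had -1.21 ± 0.494 (n = 4, limma adjusted p = 0.069), a value in which BMT replicate 3 weighed most: it held 8 H2-Q7 UMIs in 51 resident mLC, a log2 difference of -3.30, against -0.19 to -0.84 in the other libraries. Nlrc5 had -0.64 ± 0.396 (n = 4, limma adjusted p = 0.235) and was lower in 3 of 4 libraries. It was called lower with at least 50 cells per profile (limma adjusted p = 0.0292), with voom (7.21e-05) and with means of the deposited logs (0.00948).

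Other genes of the pathway were read from 4 lists. Among all genes tested in resident mLC against Mono, 14.3% were called lower and 18.4% higher. Of 11 tested genes of peptide supply and loading, 2 fell, which is close to that share. Both are subunits of the proteasome activator PA28: Psme2 fell by 1.12 and Psme1 by 0.92 on the log2 scale. Hspa5, an endoplasmic reticulum chaperone, rose by 0.37. Of 13 constitutive proteasome genes, 5 fell, the largest change being that of Psma7 (-0.81), and none rose. Of 20 regulators and interferon signalling genes, 9 fell and none rose; the receptor chains Ifngr1 (-1.63) and Ifnar1 (-1.06), the transcription factor Irf1 (-1.83) and the signalling inhibitor Socs1 (-1.18) changed most. Among 7 other heavy chain genes, H2-Q4 (-0.96) and H2-T22 (-0.68) fell while H2-M5 (5.26) and H2-M2 (4.01) rose. Medians were -0.22 for supply and loading, -0.27 for the constitutive proteasome, -0.42 for regulators and -0.19 for the other heavy chains, beside 0.14 for all genes.

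**Figure D2:**
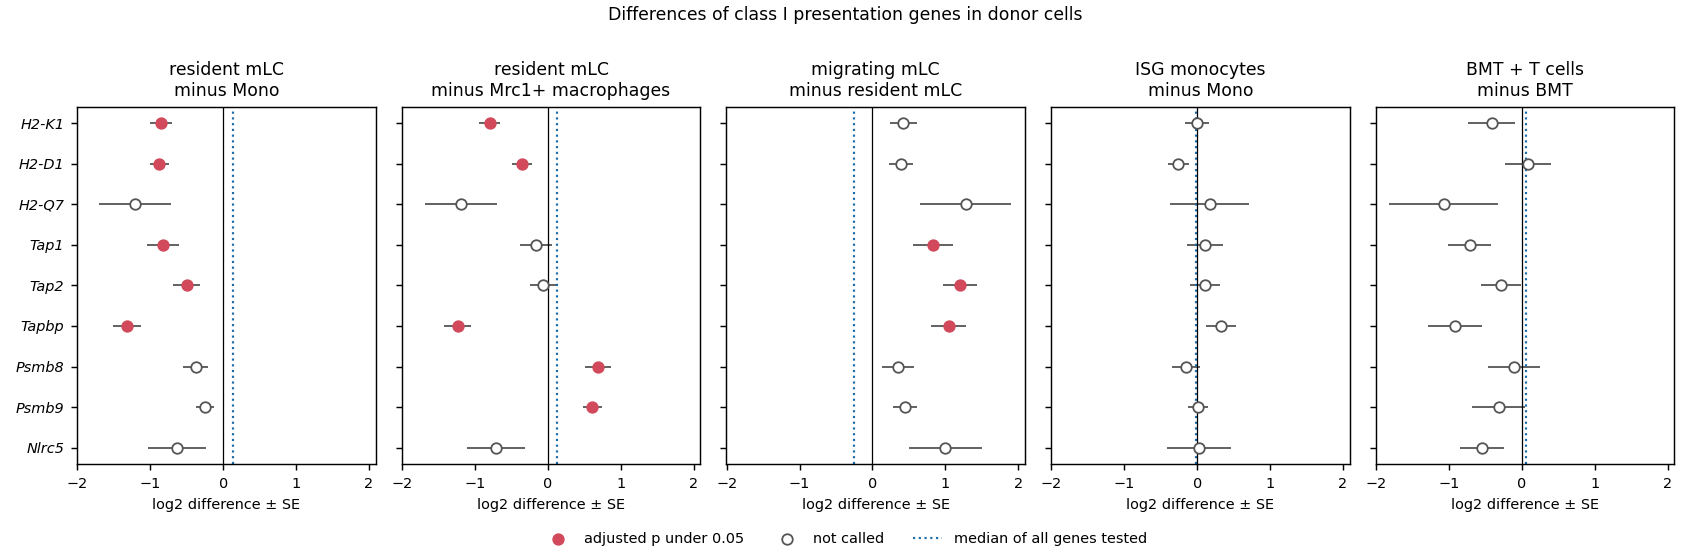
Log2 differences (x axes) with their standard errors for the 9 measured genes in 5 comparisons of donor cells, with filled points for a limma adjusted p under 0.05 and a dotted line at the median of all genes tested. Resident mLC lie to the left of Mono for 9 genes, the immunoproteasome subunits Psmb8 and Psmb9 lie to the right against Mrc1+ macrophages, and all 9 genes lie to the right in migrating against resident mLC.

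Between resident mLC and Mrc1+ macrophages, 3 of the 9 genes were lower in resident mLC (Tapbp, H2-K1 and H2-D1) and 2 were higher (Psmb8 and Psmb9). Of all genes tested, 13.6% were called lower and 17.9% higher, so 2 of 9 higher is close to that background. The 2 immunoproteasome calls rest on the library block, as without it Psmb8 had a limma adjusted p of 0.0694 and Psmb9 of 0.0875. Psmb8, the catalytic subunit also known as LMP7, had 3.72, 2.85, 5.35 and 3.75 UMIs per 10000 in resident mLC of BMT replicates 1 to 3 and BMT + T cells, and 2.64, 1.57, 2.77 and 2.54 in Mrc1+ macrophages. Every resident mLC library was above every macrophage library, as for 12.8% of genes tested, and the log2 difference was 0.69 ± 0.173 (n = 4, limma adjusted p = 0.00315). Psmb9, or LMP2, measured 4.15, 3.57, 2.35 and 2.5 against 2.83, 2.24, 1.22 and 1.90, with the higher value in resident mLC in 4 of 4 libraries. Its log2 difference was 0.61 ± 0.127 (n = 4, limma adjusted p = 0.000571).

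Tapbp in Mrc1+ macrophages was at 6.46, 10.1, 6.18 and 3.36 UMIs per 10000, and the log2 difference of resident mLC was -1.24 ± 0.188 (n = 4, limma adjusted p = 1.38e-05). H2-K1 in the macrophages was at 33.4, 39.4, 27.7 and 23.6, with a log2 difference of -0.80 ± 0.145 (n = 4, limma adjusted p = 0.000129). H2-D1 was close to the threshold at -0.35 ± 0.134 (n = 4, limma adjusted p = 0.047), was lower in resident mLC in 4 of 4 libraries, and lost its call when BMT replicate 1 (adjusted p = 0.186), BMT replicate 2 (0.14) or BMT + T cells (0.169) was left out. The 2 transporter subunits gave log2 differences of -0.16 for Tap1 and -0.06 for Tap2 (adjusted p = 0.602 and 0.824), but the libraries did not point one way. Tap1 was higher in resident mLC in 3 of 4 libraries (0.23 to 0.34) and lower in BMT replicate 3 (-1.51). The Mrc1+ macrophages of BMT replicate 3 were 45 cells with a median of 2214 UMIs, against 4845.5 to 14259 in the other libraries. Nlrc5 and H2-Q7 also took their negative values, -0.71 and -1.19, from that library and BMT + T cells, and neither was called (adjusted p = 0.18 and 0.0747). The median of the 9 genes was -0.35 beside 0.12 for all genes, but it was 0.02 without BMT replicate 3, -0.07 with at least 50 cells per profile and -0.12 with voom. Within the libraries it was 0.28, 0.01, -1.26 and -0.56 in BMT replicates 1 to 3 and BMT + T cells. Among the lists, H2-M5 rose (5.13), Psme3 (-0.58) and Sec61a1 (-0.55) fell, none of 13 constitutive proteasome genes was called, and 6 of 20 regulators fell, with Ifnar1 (-1.23), Ifngr1 (-0.99), Irf1 (-0.82) and Ifngr2 (-0.63) furthest.

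Migrating mLC, which the study describes as poised to leave the epidermis, had higher values than resident mLC for all 9 measured genes. The 3 called genes formed the transport and loading step: Tap2, Tapbp and Tap1. Of all genes tested, 6.81% were called higher and 13.3% lower, and the median log2 difference was 0.83 for the 9 genes beside -0.26 for all. Migrating mLC came from BMT replicates 1 and 2 (91 and 766 cells), since the other libraries held under 20 of them, and were compared with resident mLC of all 4 libraries in the fit. Within BMT replicates 1 and 2 alone, the median log2 difference of the 9 genes was 0.49 and 0.39, smaller than the fitted 0.83. In BMT replicates 1 and 2, Tap2 was at 3.77 and 3.07 UMIs per 10000 in migrating mLC and at 1.39 and 1.32 in resident mLC, a log2 difference of 1.198 ± 0.235 (2 against 4 libraries, limma adjusted p = 0.000648). Tapbp was at 5.98 and 8.11 against 2.5 and 4.18, a difference of 1.04 ± 0.239 (2 against 4 libraries, limma adjusted p = 0.00274). Tap1 was at 5.13 and 5.26 against 2.87 and 3.56, a difference of 0.83 ± 0.276 (2 against 4 libraries, limma adjusted p = 0.0343). Within the 2 libraries the log2 differences were 1.37 and 1.16 for Tap2, 1.23 and 0.94 for Tapbp and 0.82 and 0.55 for Tap1. Without BMT replicate 1 or 2, only Tap2 was called (limma adjusted p = 0.0408 and 0.0418), as Tapbp then had 0.0941 and 0.113 and Tap1 0.369 and 0.231. Tap1 also lost its call without BMT + T cells (adjusted p = 0.0557).

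The other 6 genes were higher in both libraries and did not pass the test. H2-K1 was at 27.2 and 29.1 UMIs per 10000 against 24 and 23.7, and H2-D1 at 33.7 and 23.4 against 26.2 and 19.0. Psmb8 was at 5.29 and 3.77 against 3.72 and 2.85, and Psmb9 at 5.85 and 4.69 against 4.15 and 3.57. Nlrc5 was at 1.36 and 1.28 against 1.24 and 0.625, and H2-Q7 at 3.69 and 1.56 against 2.81 and 1.18. Their limma adjusted p values, from the fit with resident mLC of all 4 libraries, ran from 0.053 for Psmb9 to 0.272 for Psmb8. For 7 of the 9 genes both migrating values lay above both resident values, a pattern seen in 16.0% of genes tested; the 2 that overlapped were H2-D1 and H2-Q7. Around these genes, Psme2 (1.35) and Psme1 (0.88) rose and the chaperones Hspa5 (-0.88) and Pdia3 (-0.76) fell, so 3 of 11 supply and loading genes rose and 2 fell. Of 20 regulators, 4 rose and 1 fell; Relb (2.24) and Nfkb1 (1.04), both NF-kappa B subunits, Irf1 (1.19) and Ifnar1 (0.90) changed most. Psma7 (0.52) was the 1 constitutive proteasome gene called of 13. H2-M5 fell by 4.37.

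ISG monocytes carry their name from interferon-stimulated genes, so their class I genes were set beside those of Mono. None of the 9 genes was called by limma, with 2.38% of all genes called and 772 of 7267 genes (10.6%) at an unadjusted p under 0.05. Their log2 differences ran from -0.26 for H2-D1 to 0.33 for Tapbp, with standard errors of 0.141 to 0.546, a median of 0.03 and a median of -0.02 for all genes. H2-K1, for example, was at 34, 37.2 and 29.7 UMIs per 10000 in ISG monocytes of BMT replicates 1 and 2 and BMT + T cells, and at 34.2, 36.5 and 26.2 in Mono. Library levels overlapped between the clusters for each of the 9 genes, while over all genes 6.16% lay fully apart in the lower and 8.41% in the higher direction. In the lists, H2-M2 (3.25) rose and no gene of the other 3 lists was called.

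How alike the 9 genes were was described over 27 donor profiles, each a library and cluster with at least 20 cells. These profiles share libraries and depth, so the coefficients carry no p. The closest pair was Tapbp and H2-K1, with a Spearman coefficient of 0.906, followed by Tap1 and Tap2 at 0.853. Psmb8 stood apart from the loading genes, at 0.044 with H2-K1 and 0.059 with Tapbp, and nearest to its partner Psmb9 at 0.667. Tap2 (0.85) and Tap1 (0.845) followed the mean of the remaining genes best and Psmb8 (0.449) least. Outside the pathway lists, the genes whose profile was most like the mean of the 9 were Serpina3g (0.906), Gbp5 (0.882), Cxcl9 (0.862), Slamf7 (0.84) and Cd40 (0.838).

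Donor cells under the 2 labels were compared on the mean of the 3 clusters with at least 20 cells in all 4 libraries, Mono, Mrc1+ macrophages and resident mLC. No gene was called between BMT + T cells and BMT by limma (0 of 7345, or 0.0%), and 352 genes (4.79%) had an unadjusted p under 0.05. The 9 genes had a median log2 difference of -0.42, beside 0.05 for all genes. Tapbp was at 6.04, 8.32 and 4.47 UMIs per 10000 in BMT replicates 1 to 3 and at 2.89 in BMT + T cells, a log2 difference of -0.92 ± 0.374 (1 library against 3, limma adjusted p = 0.949). Tap1 was at 3.57, 4.37 and 3.16 against 2.12 (-0.72 ± 0.299, limma adjusted p = 0.949). H2-K1 was at 30.5, 33.2 and 23.2 against 21.3 (-0.42 ± 0.328, adjusted p = 0.949), and H2-D1 at 34.1, 23.6 and 28.0 against 29.6 (0.09 ± 0.316, adjusted p = 0.988).

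In this comparison, BMT replicate 3 lay close to the BMT + T cells library for H2-K1, H2-Q7 and Tap2 (log2 differences of -0.05, -0.08 and -0.08). It lay further off for Tap1 (-0.48), Tapbp (-0.47) and Psmb8 (-0.46). H2-D1, Psmb9 and Nlrc5 were at 0.18, 0.19 and -0.23. The short names of the libraries put BMT replicate 3 and BMT + T cells together and BMT replicates 1 and 2 together. This is read here as the experiment, though no label states it. For 6 of the 9 genes, BMT replicates 1 and 2 were both above BMT replicate 3 and BMT + T cells, a split that 19.1% of all genes showed in that direction and 28.6% in the opposite one. Against BMT replicate 3 alone, the median difference of the 9 genes was -0.08. With BMT replicate 3 left out, the log2 difference was -1.57 for H2-Q7 and -1.15 for Tapbp. This sets 1 library against 2, and the 2 BMT libraries themselves were at 2.94 and 1.36 for H2-Q7, so it is given as a description. The BMT + T cells library lay inside the range of the 3 BMT libraries for H2-D1, Psmb8 and Psmb9. Label and experiment cannot be told apart in the difference from BMT replicates 1 and 2.

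Keratinocytes are the main cells of the epidermis and are not professional antigen-presenting cells. In the keratinocyte library labelled BMT + T cells, all 10 class I genes were higher than in the library labelled BMT, and 3 of them, H2-Q7, B2m and Psmb8, by more than 1 on the log2(value + 0.1) scale, the one used for all log2 ratios of keratinocytes unless stated. Of the 7534 genes with enough UMIs, 0.358% were higher and 0.0664% lower by more than 1, and 50.3% were higher at all. There is 1 library per label, so this compares 2 libraries and has no test, and the intervals given are exact Poisson intervals at 95% that cover counting error only. The median log2 ratio was 0.90 for the 10 genes and 0.00 for all genes. The scale understates the ratios of low genes: with no pseudocount, a choice added after the data had been seen, the median of the 10 was 0.99 and Nlrc5 was also past 1 (1.04, against 0.65 with it), with 0.557% of all genes higher by more than 1.

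H2-Q7 had 759 UMIs in the BMT library, or 0.273 per 10000 (0.254 to 0.293), and 3276 UMIs or 1.31 per 10000 (1.27 to 1.36) in the BMT + T cells library, a ratio of 4.81 (4.44 to 5.21). B2m, the light chain common to all class I molecules, went from 1.21 per 10000 (1.17 to 1.25) to 3.05 (2.99 to 3.12), a ratio of 2.53 (2.43 to 2.64). H2-K1 was at 9.56 (9.45 to 9.68) against 18.5 (18.3 to 18.6), and H2-D1 at 11.2 (11.1 to 11.4) against 19.2 (19.1 to 19.4). The ratios of these classical heavy chains were 1.93 and 1.71. B2m thus stood far below H2-K1 in both keratinocyte libraries. In the keratin-rich cluster 5 of the host table, by contrast, B2m was at 16.6 and H2-K1 at 15.0 per 10000. Why the tables differ was not tested, so the level of B2m in keratinocytes is uncertain.

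For the immunoproteasome, Psmb8 was at 0.472 per 10000 (0.446 to 0.498) against 1.21 (1.17 to 1.26), a ratio of 2.57, and Psmb9 at 0.815 (0.782 to 0.849) against 1.62 (1.57 to 1.67), a ratio of 1.99. Tap1 was at 0.752 against 1.48, a ratio of 1.97 (1.87 to 2.08), and Tap2 at 0.365 against 0.593, a ratio of 1.63 (1.5 to 1.76). The smallest ratio of the 10 was that of Tapbp, 1.39 (1.33 to 1.46), from 1.18 to 1.65 per 10000. Nlrc5 was low in both libraries, at 0.117 (0.105 to 0.131) and 0.241 (0.222 to 0.261), a ratio of 2.05 (1.79 to 2.36). Over all cells, no interval of a ratio reached 1.

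The 10 genes were higher under BMT + T cells within each of the 5 annotated keratinocyte clusters (Basal, Differentiated, Follicular, KC_Four and KC_Five), with median log2 ratios of 0.76 to 0.95. The ratio of H2-K1 ran from 1.74 in KC_Five to 2.16 in Follicular cells, and that of B2m from 2.24 to 2.64. H2-Q7 varied most, from 2.58 to 5.82, and Psmb8 from 1.59 to 3.15; for both, KC_Five had the lowest ratio. The counting interval of the ratio lay above 1 in 5 of 5 clusters for 9 of the genes and in 4 of 5 for Tap2.

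**Figure D3:**
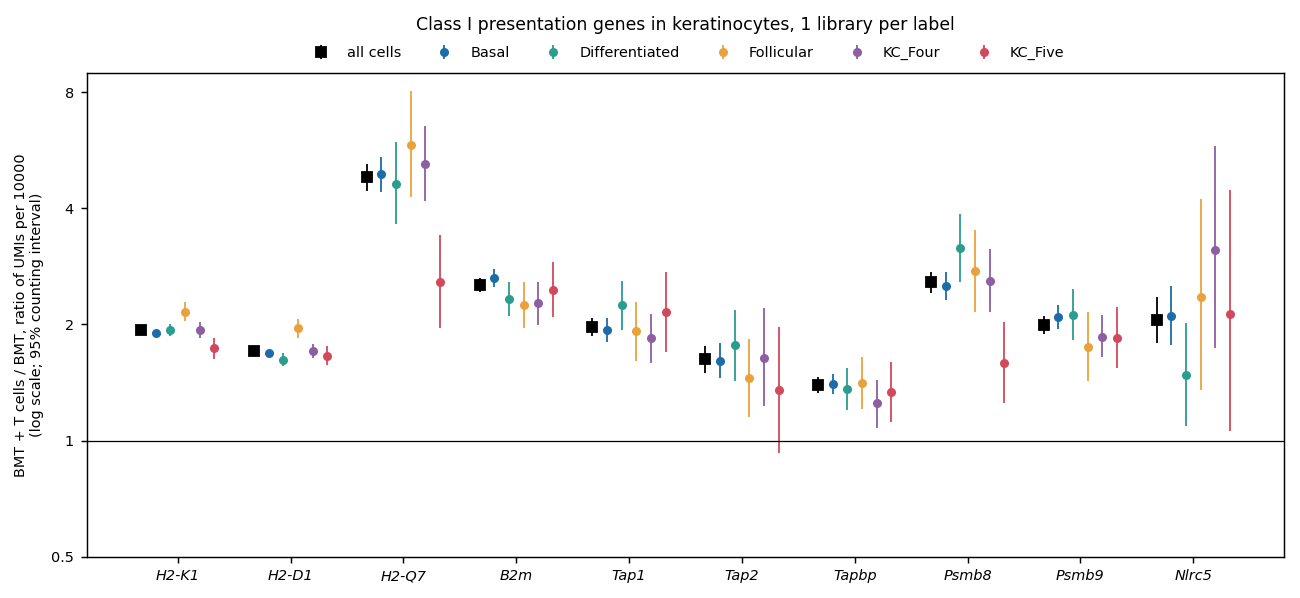
Ratio of UMIs per 10000 in the keratinocyte library labelled BMT + T cells to the library labelled BMT (y axis, log scale) for the 10 genes, over all cells (squares) and in each annotated cluster (circles), with 95% counting intervals and a line at a ratio of 1. All points lie above 1, H2-Q7 reaches the highest ratios and Tapbp the lowest.

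Cells of both keratinocyte libraries were thinned to 2500 UMIs each, which left no cell out, to compare single cells at equal depth. Summed over the 10 genes, the median cell then held 6 UMIs in the BMT library and 12 in the BMT + T cells library, and the 10th and 90th percentiles were 1 and 14 against 5 and 20. Cells without any UMI of the 10 genes were 104 of 2836 (3.67%) and 7 of 2590 (0.27%). Of the BMT + T cells library, 83.7% of cells exceeded the median of the BMT library and 33.2% its 90th percentile. The whole distribution therefore lay higher, and a part of the cells still overlapped. B2m was detected in 26% of thinned BMT cells (exact binomial interval 24.4 to 27.6) and in 50.8% (48.8 to 52.7) of thinned BMT + T cells cells, and without thinning in 55.6% and 84.2%. H2-Q7 was detected in 5.71% (4.89 to 6.63) and 23.5% (21.9 to 25.2) of thinned cells, and without thinning in 11.9% and 47.1%, at median depths of 8895.5 and 8834 UMIs.

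**Figure D4:**
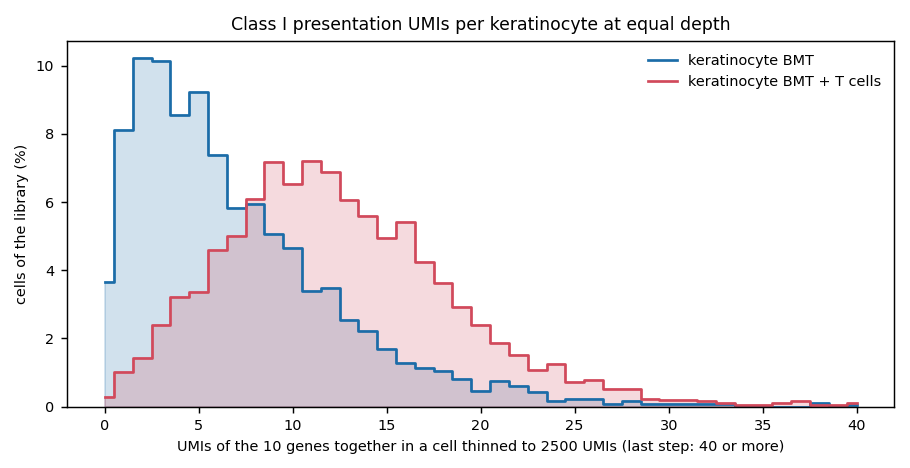
Distribution of the summed UMIs of the 10 genes per keratinocyte thinned to 2500 UMIs (x axis, last step 40 or more) as percent of cells of each library (y axis). The BMT library peaks at low sums with a median of 6, and the BMT + T cells library has its median at 12.

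Markers of other cells were looked up beside this difference, in a gate that had been sorted for cells without CD45. Of the 6 myeloid markers, 5 had a UMI in the BMT library and 6 in the BMT + T cells library, and the summed list was at 0.299 and 1.93 UMIs per 10000. Ptprc, the CD45 gene, had 0 UMIs and 3 UMIs, and Tyrobp 2 and 35. Nearly all of that was Cd74, the invariant chain of class II presentation, with 824 and 4763 UMIs in 167 and 469 cells. Of the 8 T cell markers, 6 had a UMI in each library, and they summed to 0.453 and 0.375 per 10000, mainly Trbc2. Cd8a was at 0 UMIs in both, which allows up to 0.00133 and 0.00148 per 10000 by the exact Poisson interval. In the 2178 and 2071 cells without a UMI of any myeloid or T cell marker other than Cd74, an added choice made after the data had been seen, the 10 genes were again all higher, with a median log2 ratio of 0.93, and the same 3 of them were past 1. Trbc2 had a UMI in 621 and 485 cells, so this choice mainly removed cells with Trbc2. It cannot decide what other cells or free RNA add, since it kept the cells with Cd74. The summed Langerhans markers were at 1.18 and 0.988 per 10000. Of the 3 neutrophil markers, 2 had a UMI in each library and Ly6g was at 0, and their sum was 0.377 and 0.841 per 10000. By cluster, the neutrophil sum was 0.571 and 1.27 in Basal, 0.251 and 0.296 in Differentiated and 0.166 and 0.186 in Follicular cells. It was 0.0508 and 0.0284 in KC_Four and 0.044 and 0.0781 in KC_Five. Outside Basal cells Retnlg had no UMI either, so the neutrophil sum there was S100a8 alone. The summed myeloid markers were higher under BMT + T cells in each cluster. What part such cells or their RNA had in the class I difference was not tested.

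Among the other pathway genes in keratinocytes, the 4 further heavy chain genes with enough UMIs were all higher under BMT + T cells (median log2 ratio 0.93), and H2-Q6 was past 1 (1.12). None of 12 supply and loading genes, 13 constitutive proteasome genes or 17 regulators was past 1 in either direction, with medians of 0.02, -0.14 and 0.05. Of the constitutive proteasome genes 1 of 13 was higher at all, beside both immunoproteasome subunits.

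Host CD11b+MHCII+ cells came as 1 library of 781 cells in 7 numbered clusters, given as levels with no test, since there was 1 library. They were not tested against donor cells, as each table had been normalized on its own. Clusters 1 to 4 (276, 170, 161 and 90 cells) held the Langerhans markers Cd207, Epcam and Mfge8 at 9.90 to 74.3 UMIs per 10000 summed. Cluster 5 went against the gate with keratins at 380 per 10000, and cluster 6 with T cell markers at 148. Over all host cells, H2-K1 was at 10.1 UMIs per 10000 (9.86 to 10.4), H2-D1 at 8.13 (7.89 to 8.38) and B2m at 8.29 (8.04 to 8.54). Cluster 5, with 43 cells, held 58.1% of the B2m, 51.0% of the H2-D1 and 43.0% of the H2-K1 UMIs. Without it, a choice added after the data had been seen, H2-K1 was at 8.12 (7.83 to 8.42), H2-D1 at 5.61 (5.37 to 5.86) and B2m at 4.89 (4.67 to 5.13).

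The host clusters differed widely in B2m and H2-D1. B2m was at 0.441 per 10000 (0.327 to 0.581) in cluster 1 and 1.01 (0.803 to 1.26) in cluster 3, against 9.83 (9.15 to 10.5) in cluster 2 and 10.3 (9.46 to 11.1) in cluster 4. H2-D1 followed, at 0.952 and 1.44 in clusters 1 and 3 and at 8.91 and 9.46 in clusters 2 and 4. H2-K1 differed less, at 5.08, 7.77, 5.95 and 12.3 in clusters 1 to 4. Psmb8 was at 0.353 and 0.899 in clusters 1 and 3 and at 4.17 and 6.26 in clusters 2 and 4. On these summed UMIs, cluster 4 also held the highest Psmb8, Tap1 (3.33), Tap2 (2.38), Psmb9 (2.90) and Nlrc5 (2.14) of the 7. As means over cells, Psmb9 was highest in cluster 2 (3.23, against 2.47 in cluster 4). Psmb8, Tap1, Tap2 and Nlrc5 stayed highest in cluster 4. B2m was then at 13.5 in cluster 2 and 9.04 in cluster 4. Median mitochondrial shares were 15.6% and 16.9% in clusters 1 and 3, 6.09% in cluster 2 and 12.9% in cluster 4, and cells of cluster 2 were shallow, with a median of 1763.5 UMIs; the part of either in these levels was not tested. B2m stood at 16.6 in the keratin-rich cluster 5 and at 14.3 in cluster 6. Cluster 7, 18 cells at 23.9% mitochondrial UMIs, had 0 Psmb8 UMIs, which allows up to 0.224 per 10000 by the exact Poisson interval.

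The ratio of H2-K1 to H2-D1 UMIs was followed because it does not depend on scaling to the depth of a cell. It was read only between libraries and clusters, not as the relative abundance of the 2 transcripts. In BMT replicate 2 it was above 1 in 9 of 9 clusters, from 1.13 to 1.43. In the other donor libraries it was below 1 in every cluster of at least 20 cells: 0.679 to 0.899 in 8 clusters of BMT replicate 1, 0.560 to 0.918 in 3 clusters of BMT replicate 3 and 0.619 to 0.763 in 7 clusters of BMT + T cells. The range of BMT replicate 2 thus did not overlap that of another donor library. H2-D1 was lower in BMT replicate 2 than in BMT replicate 1 in Mono, Mrc1+ macrophages and resident and migrating mLC. H2-K1 was higher there in 3 of these clusters, and in resident mLC it was at 23.7 against 24 UMIs per 10000. Keratinocyte clusters lay between 0.807 and 1.1. In host cells, the ratio was 5.33, 4.12 and 5.62 in clusters 1, 3 and 7 (276, 161 and 18 cells) and 0.775 to 1.30 in the other 4.

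**Figure D5:**
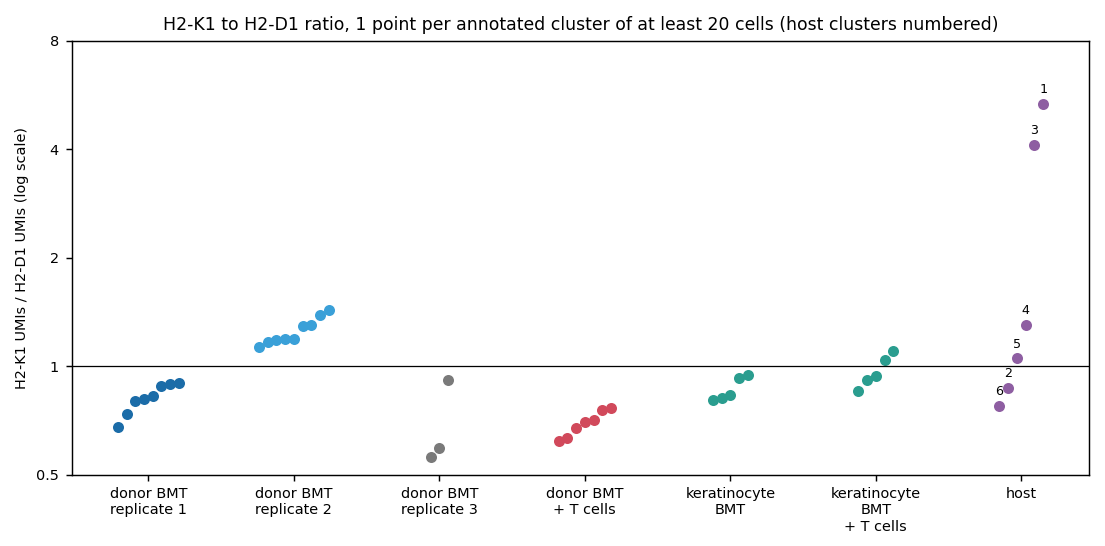
Ratio of H2-K1 to H2-D1 UMIs (y axis, log scale) in each library (x axis), 1 point per annotated cluster with at least 20 cells, with a line at a ratio of 1 and the host clusters numbered. BMT replicate 2 lies above 1 in 9 of 9 clusters, the other donor libraries lie below 1, and host clusters 1 and 3 reach 5.33 and 4.12.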

How the data were processed

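Droplet 5′ RNA sequencing (10x) of sorted epidermal cells was analysed from the expression and cell tables of 7 libraries. Per the labels and the study's methods, the authors used kallisto, bustools and Seurat with GRCm38 (per the submitters' processing notes; the annotation is not given in the sources used here), stated that they removed cells under 500 genes or over 20% mitochondrial UMIs and likely doublets (DoubletFinder), and deposited natural log values, ln(1 + UMIs per 10000), with cluster names and the percent of mitochondrial UMIs. All deposited cells were kept, and doublets were not called again. Cells above the stated 20% limit were among them, as host cluster 7 had a median mitochondrial share of 23.9%. The log was undone, and 100% of values gave whole UMI counts within 0.001. The donor table lists 15155 genes (91.3% of the UMIs of the median cell), and the keratinocyte and host tables list 26383 and 23737.

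Profiles were means of UMIs per 10000, 1 for every library and cluster that had 20 or more cells. Genes whose profiles averaged 0.1 or more entered the test as log2(value + 0.1) with limma 3.58.1 in R 4.3.3 (trend and robust prior, statmod 1.5.0, library as a block), with all profiles in 1 fit, at a Benjamini-Hochberg adjusted p under 0.05 over all genes. This pseudocount understates changes of low genes. The label comparison had no block and assumed that the lone library varies like the other 3. Because same-library profiles come from the same mice, the library block pairs clusters. Keratinocyte ratios and host levels used summed UMIs. Intervals were exact Poisson or binomial at 95%, and a ratio past 1 on the log2 scale was counted. Alternatives were pseudocounts of 0.01 and 1, no filter, means of the deposited logs, 50 cells, voom on UMI sums, no block, and each library left out. The fit was also run on simulated counts with planted changes. These held no other differences between libraries, so the run cannot show how the fit handles such differences. The members and gene lists were chosen with earlier results of these data known. All 10 members were named, and of each other list at most 4 called genes with the largest change per comparison; genes of like pattern were the 5 of highest Spearman coefficient. The alternatives without marker-positive keratinocytes, without a pseudocount in keratinocytes, without host cluster 5 and within single libraries for migrating mLC were chosen after seeing the data. Tools were pandas 2.3.3, matplotlib 3.10.9, Biopython 1.88, SciPy 1.17.1 and NumPy 2.4.6 under Python 3.11.15.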

Additional observations from a re-analysis of the deposited data

Results flagged for a closer look

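For 6 genes, the donor library labelled BMT + T cells was lower than each of the 3 BMT libraries, while the keratinocyte library of the same label was higher than its BMT counterpart. The share of all genes with this donor order was not counted, so the number of genes is not a result in itself. The donor log2 differences were -0.42 for H2-K1, -1.07 for H2-Q7, -0.72 for Tap1, -0.29 for Tap2, -0.92 for Tapbp and -0.54 for Nlrc5, and the keratinocyte log2 ratios were 0.94, 1.92, 0.90, 0.58, 0.44 and 0.65, all on the log2(value + 0.1) scale, which understates changes of low genes. With no pseudocount the keratinocyte log2 ratios were 0.95, 2.27, 0.98, 0.70, 0.48 and 1.04 in the same order. The difference between donor cells and keratinocytes was not tested. The paper states that keratinocytes and CD11b+MHCII+ cells were taken from shared epidermal samples. By their short names, the donor libraries matching the keratinocyte ones are BMT replicate 3 and BMT + T cells, though no label states it. Against BMT replicate 3 alone, the donor differences were -0.05, -0.08, -0.48, -0.08, -0.47 and -0.23 in the same order.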

How the results depend on the processing

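In the donor cluster comparisons, the number of the 9 genes called was 5 for resident mLC against Mono (3 with no replicate block, 3 to 5 with 1 library left out, 4 with no filter, 6 with a pseudocount of 1 and with means of the deposited logs, 7 with voom and with at least 50 cells per profile), 5 against Mrc1+ macrophages (2 with no replicate block, 4 to 5 with 1 library left out, 6 with voom), 3 for migrating against resident mLC (8 with at least 50 cells per profile, 5 with voom, 1 to 4 with 1 library left out) and 0 for ISG monocytes against Mono under each alternative run. For the donor labels, none of the 9 genes was called in the main setting. This did not hold for H2-Q7 and Tapbp under every alternative. A fit with a lone library under a label gives no firm call either way. Shares of all genes called were not counted for the alternatives, so these numbers show only how far the calls moved. The count of keratinocyte genes past 1 was 3, 4 with no pseudocount, but 0 with a pseudocount of 1 and 1 with means of the deposited logs, which compress ratios by their construction.

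Against Mrc1+ macrophages, the uncalled Tap1 and Tap2 changed sign with means of the deposited logs (0.101 and 0.092), with at least 50 cells per profile (0.271 and 0.118) and with voom (0.296 and 0.227, Tap1 then called higher at an adjusted p of 0.0406). With each library left out they ran from -0.332 to 0.287 and from -0.178 to 0.048, and Nlrc5 from -1.144 to 0.021, in each case positive without BMT replicate 3. Between the donor labels, H2-D1 changed sign with all cells pooled (-0.205) and ranged from -0.019 (without BMT replicate 2) to 0.245 with 1 library left out, Psmb8 ranged from -0.338 to 0.071 (without BMT replicate 3), and Psmb9 was 0.191 with the experiment as a term or against BMT replicate 3 alone. Apart from the settings that narrow the profiles or samples, the cause was not tested. No paired test of the labels was possible, because BMT + T cells had 1 library in donor cells and 1 in keratinocytes. The library block of the cluster comparisons is the pairing used there. The minimum of 20 cells per profile, the 226 cells of BMT replicate 3 and 1 library per keratinocyte label limit what these values can show.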
